A study of Mus musculus with 768 samples.

Results

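The genes used here to tell parts of the striatum apart were followed through single nuclei of mouse striatum. They are Crym, Wfs1 and Cartpt, taken here as genes of the medial or ventral striatum, and Coch, Reln and Gpr155, taken as genes of the dorsolateral side. They were chosen by name, as 6 of the 24489 gene rows of the count table. The nuclei came from untreated C57BL/6 mice of genotype Oprm1-Cre:H2BG or Slc32a1-Cre:H2BG. In both genotypes the H2BG allele was combined with a Cre gene, driven by the mu opioid receptor gene Oprm1, a gene of the patch compartment, or by the vesicular GABA transporter gene Slc32a1, a gene of GABAergic neurons. Of the 768 wells, the genotypes filled equal numbers with 1 nucleus a well, and the wells of a genotype are called its plate below, and neither the animals nor the position of a nucleus in the striatum were named in the labels.

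Spiny projection neurons (SPNs) form the output of the striatum and fall into a D1 type of the direct pathway and a D2 type of the indirect pathway. Within both types, gene expression changes gradually from the ventral and medial striatum, which receives limbic and associative input, to the dorsolateral striatum, which receives sensorimotor input. Crym encodes mu-crystallin, a cytosolic protein that binds thyroid hormone, and is also known from striatal astrocytes. Wfs1 encodes wolframin, a membrane protein of the endoplasmic reticulum whose loss causes Wolfram syndrome, and Cartpt encodes the precursor of the CART peptides, which is known from the nucleus accumbens. Coch encodes cochlin, a secreted matrix protein best known from the inner ear. Reln encodes reelin, a large secreted glycoprotein that signals through the receptors Vldlr and Lrp8 to the adaptor Dab1, and Gpr155 encodes a lysosomal membrane protein that senses cholesterol.

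Promoter entries of RefSeq matched 5 of the 6 members, all but Crym. Those of Wfs1, Coch and Gpr155 are shown because these genes stand in the pairs described below, Wfs1 with Crym and Coch with Wfs1 and Gpr155. Each is 300 bases of RefSeq sequence on GRCm38.p6, set from 250 before to 50 after the start that RefSeq gives. The Wfs1 window lies on the minus strand at chr5:36988933-36989232, the Coch window on the plus strand at chr12:51593091-51593390 and the Gpr155 window on the minus strand at chr2:73386431-73386730. Capitals mark, on either strand, the GC box GGGCGG, the nuclear receptor motif AGGTCA, the cyclic AMP response motif TGACG and the TATA box TATAAA.
Wfs1: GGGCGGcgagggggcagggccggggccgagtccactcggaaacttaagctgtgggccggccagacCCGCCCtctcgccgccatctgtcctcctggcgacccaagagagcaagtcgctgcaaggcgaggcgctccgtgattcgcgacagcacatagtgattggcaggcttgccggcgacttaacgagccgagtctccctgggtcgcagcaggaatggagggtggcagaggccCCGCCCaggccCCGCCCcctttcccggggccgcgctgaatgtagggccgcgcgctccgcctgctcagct
Coch: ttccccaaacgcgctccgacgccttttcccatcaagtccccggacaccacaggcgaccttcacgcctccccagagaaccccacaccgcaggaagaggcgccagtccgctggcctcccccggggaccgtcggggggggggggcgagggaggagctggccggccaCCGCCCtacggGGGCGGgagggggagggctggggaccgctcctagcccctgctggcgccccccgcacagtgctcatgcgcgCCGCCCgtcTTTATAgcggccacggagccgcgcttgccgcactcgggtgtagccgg
Gpr155: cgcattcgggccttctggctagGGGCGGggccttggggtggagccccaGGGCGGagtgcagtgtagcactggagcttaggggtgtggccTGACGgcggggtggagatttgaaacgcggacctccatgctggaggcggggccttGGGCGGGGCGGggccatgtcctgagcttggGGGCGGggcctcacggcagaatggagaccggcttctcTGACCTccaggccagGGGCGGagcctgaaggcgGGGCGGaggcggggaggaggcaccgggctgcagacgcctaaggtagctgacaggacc
All of these windows were rich in G and C, at 70% for Wfs1, 73.7% for Coch and 70.3% for Gpr155, with 30, 32 and 20 CpG dinucleotides against a median of 7 over 32851 promoters. Wfs1 held 4 GC boxes, Coch 3 and Gpr155 7, and 35.7% of all promoters held at least 1. Of these windows Coch alone held the TATA letters, once and on the opposite strand (13.6% of promoters). Of the same windows Gpr155 alone held the nuclear receptor letters (16.3% of promoters) and the cyclic AMP letters (20.8%), once each. The Reln window (80.7% G and C, 47 CpG) held 6 GC boxes and none of the other motifs, and the Cartpt window (66%, 26 CpG) held 1 GC box and the cyclic AMP letters on both strands at 1 place. These matches describe the letters of the windows and not binding.

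On mm10, Crym lies on chromosome 7 (120186380 to 120202111, minus strand), Wfs1 on chromosome 5 (36966104 to 36989205, minus), Cartpt on chromosome 13 (99898489 to 99901091, minus) and Coch on chromosome 12 (51593341 to 51605771, plus). No other annotated gene overlaps these 4. Reln, also on chromosome 5 (21884454 to 22344702, minus), overlaps 7 annotated genes, 4 of them on the opposite strand, and Gpr155, on chromosome 2 (73341506 to 73386572, minus), overlaps Gm13703 and Gm13709 on the opposite strand. Against these annotated starts, 83.3% of the promoter window lies ahead of Coch, 52.7% ahead of Gpr155 and 9% ahead of Wfs1. The rest of each window lies inside the annotated gene, as does the whole Cartpt window. The sources used here do not say whether counting used strand, and overlap of exons was not examined. It is therefore not known whether some reads of Reln and Gpr155 belong to these neighbours.

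After filtering, 736 nuclei remained, from 92.4% of the Oprm1-Cre wells and 99.2% of the Slc32a1-Cre wells, with a median of 169398 (22727 to 581313) and 175337 (34513 to 487842) reads on genes. By marker genes, 493 nuclei were D1-like, 60.4% of them Oprm1-Cre and 39.6% Slc32a1-Cre. D1-like nuclei made up 83.9% and 51.2% of the kept nuclei of these plates, and D2-like nuclei 6.76% (24 nuclei) and 38.8%. A further 16 and 18 nuclei were undecided SPN-like, and 15 and 18 were interneuron-like. Levels are given as CPM, the reads of a gene per 1000000 reads of the summed nuclei. The D1 markers reached 6272 CPM in the first type and 38.1 CPM in the second among Oprm1-Cre nuclei, and 5102 and 262.2 CPM among Slc32a1-Cre nuclei, while the D2 markers reached 184.2 and 18653 CPM, and 175.8 and 21476 CPM. Any of 4 Y-linked genes had reads in 90.99% of the Oprm1-Cre nuclei and in 0 Slc32a1-Cre nuclei, which allows up to 0.787%, and Xist reads in 1.97% and 72.7%. Genotype, plate, animals and sex therefore cannot be told apart. Each plate counts as 1 sample, so there is no replicate and no test in what follows. Intervals are exact 95% limits that cover the counting error of reads or of nuclei only. The reads carry no molecular identifiers, so these limits do not cover the error of counting molecules. The upper limit of a count of 0 is taken as 3 counts, and a mean level cannot tell fewer nuclei with a gene from less RNA per nucleus.

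Crym was made by a minority of the SPN-like nuclei and at a modest level. Its summed reads stood at 75.3 CPM (72.98 to 77.6) in Oprm1-Cre and 59.2 CPM (56.7 to 61.8) in Slc32a1-Cre D1-like nuclei. In D2-like nuclei the sums were 30.1 CPM (25.003 to 35.8) and 50.98 CPM (48.4 to 53.6). Single D1-like nuclei had a median of 0, with highest values of 847 CPM among Oprm1-Cre and 654 CPM among Slc32a1-Cre nuclei, and the groups overlapped over nearly all of this range. A Crym read was found in 36.6% (31.1% to 42.3%) of the Oprm1-Cre and 23.6% (17.8% to 30.2%) of the Slc32a1-Cre D1-like nuclei, and in 33.4% and 21.1% after each nucleus was thinned to 50000 reads. In D2-like nuclei the shares were 16.7% (4 nuclei) and 18.9% (28 nuclei), close to the 13.3% (2 of 15) and 16.7% (3 of 18) of interneuron-like nuclei. Those intervals overlap widely. The Oprm1-Cre D2-like level rests on few nuclei, as the nucleus of well I4 held 69.4% of the reads and the level without it was 9.65 CPM. Astrocyte markers summed to 22.8 and 21.98 CPM in the Oprm1-Cre and Slc32a1-Cre D1-like nuclei, and to 0 and 11.99 CPM in the D2-like nuclei. All 5 of them, Aqp4 among them, were at 0 in the Oprm1-Cre D2-like nuclei. The part of astrocyte RNA in the level of Crym was not tested in any group.

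Wfs1 was found in most D1-like nuclei and in a minority of D2-like nuclei of both plates. It summed to 441 CPM (436 to 447) and 359.9 CPM (353.7 to 366.2) in Oprm1-Cre and Slc32a1-Cre D1-like nuclei. The D2-like sums were 161.7 CPM (149.7 to 174.4) and 213.2 CPM (207.96 to 218.5). The median D1-like nucleus held 38.8 CPM (lowest 0, highest 4703 CPM) among Oprm1-Cre and 49.1 CPM (0 and 4524 CPM) among Slc32a1-Cre nuclei, while the D2-like medians were 0 in both. The share of nuclei with a read was 62.1% (56.3% to 67.6%) and 60.5% (53.3% to 67.4%) in D1-like nuclei, against 33.3% (15.6% to 55.3%) and 36.5% (28.7% to 44.8%) in D2-like nuclei. Expression was uneven, as 50% of the reads came from 20 Oprm1-Cre and 18 Slc32a1-Cre D1-like nuclei, and from 2 Oprm1-Cre and 7 Slc32a1-Cre D2-like nuclei.

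Cartpt was close to absent, with reads in 16 of 732 classed nuclei. Oprm1-Cre D1-like nuclei held 84 reads in 7 nuclei (1.53 CPM, 1.22 to 1.89), and Slc32a1-Cre D1-like nuclei 2 reads in 1 nucleus (0.0565 CPM, 0.00684 to 0.204). D2-like nuclei held 2 reads in 2 nuclei and 34 reads in 2 nuclei, of which the nucleus of well M15 held 33. The summed level was 0.485 CPM and 1.15 CPM there. Of the 7 Oprm1-Cre D1-like nuclei, 7 had Wfs1 reads, at up to 4598 CPM, and 6 had Crym reads. Over all Oprm1-Cre D1-like nuclei these shares were 62.1% and 36.6%. Reads of dorsolateral genes were found as well, of Reln in 7 of them and of Coch and Gpr155 in 3 each. The nucleus of well H1 held Coch at 768.6 CPM and Wfs1 at 3.86 CPM. The nuclei of wells K22 and D12 alone of these held Trhr, a gene for a neuropeptide receptor, at 649 and 1311 CPM. Dlk1 stood at 335.9 and 523 CPM in them, at 4.63 CPM in well G6, and had no read in the others. The D2-like nucleus of well M15 of the Slc32a1-Cre plate held Cartpt at 251.8 CPM with Wfs1 at 1564 CPM, Dlk1 at 458 CPM and Trhr at 144.97 CPM. It had no read of Crym, Coch or Reln, but held Gpr155, taken as a dorsolateral gene, at 602.8 CPM. The highest single value, 278.5 CPM, was in an interneuron-like nucleus of the Oprm1-Cre plate (well B7). At this depth no difference in Cartpt between plates or types is given as a fold.

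Coch was lower in Oprm1-Cre D1-like nuclei than in the other D1-like and D2-like groups. It stood at 341.7 CPM (336.8 to 346.6) in Oprm1-Cre D1-like nuclei, against 794 CPM (785 to 803) in Slc32a1-Cre D1-like nuclei. D2-like nuclei were at 886 CPM (858 to 915) and 849.5 CPM (839 to 860.1). The median D1-like nucleus held 69.9 CPM (lowest 0, highest 2129 CPM) among Oprm1-Cre and 539 CPM (0 and 4285 CPM) among Slc32a1-Cre nuclei. The middle of the groups thus differed while their ranges overlapped. A read was found in 61.4% (55.6% to 66.97%) and 77.4% (70.9% to 83.1%) of D1-like nuclei and in 79.2% (57.8% to 92.9%) and 80.4% (73.1% to 86.5%) of D2-like nuclei. Interneuron-like nuclei had 1.01 and 0.778 CPM, from 3 reads in each plate.

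Gpr155 was found in most SPN-like nuclei and differed most between the plates' D1-like nuclei. It stood at 355.7 CPM (350.7 to 360.7) in Oprm1-Cre and 1063 CPM (1052 to 1074) in Slc32a1-Cre D1-like nuclei, while D2-like nuclei had 678 CPM (653 to 703) and 693 CPM (684 to 703). The median D1-like nucleus held 168.6 CPM (lowest 0, highest 2471 CPM) among Oprm1-Cre and 766 CPM (0 and 7151 CPM) among Slc32a1-Cre nuclei. Shares with a read were 80.2% and 91.8% of D1-like nuclei and 87.5% and 91.9% of D2-like nuclei. Gpr155 was also found in 9 of 15 and 11 of 18 interneuron-like nuclei, at 160.5 and 43.1 CPM.

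Reln reads were found in most D1-like nuclei, 95.3% (92.2% to 97.4%) of the Oprm1-Cre and 87.2% (81.7% to 91.5%) of the Slc32a1-Cre ones. Its summed level was 603 CPM (597 to 609.7) and 441 CPM (434 to 448) in D1-like nuclei, while D2-like nuclei had 166.8 CPM (154.55 to 179.7) and 310.05 CPM (303.7 to 316.5). The median D1-like nucleus held 494 CPM (lowest 0, highest 4355 CPM) among Oprm1-Cre and 317.02 CPM (0 and 2292 CPM) among Slc32a1-Cre nuclei, and the D2-like medians were 76.6 and 104.5 CPM. Interneuron-like nuclei, a class led here by Npy and Sst, held 4 reads of Reln in the Oprm1-Cre plate and 0 in the Slc32a1-Cre plate, which allows up to 0.778 CPM at 3 reads.

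**Figure D1:**
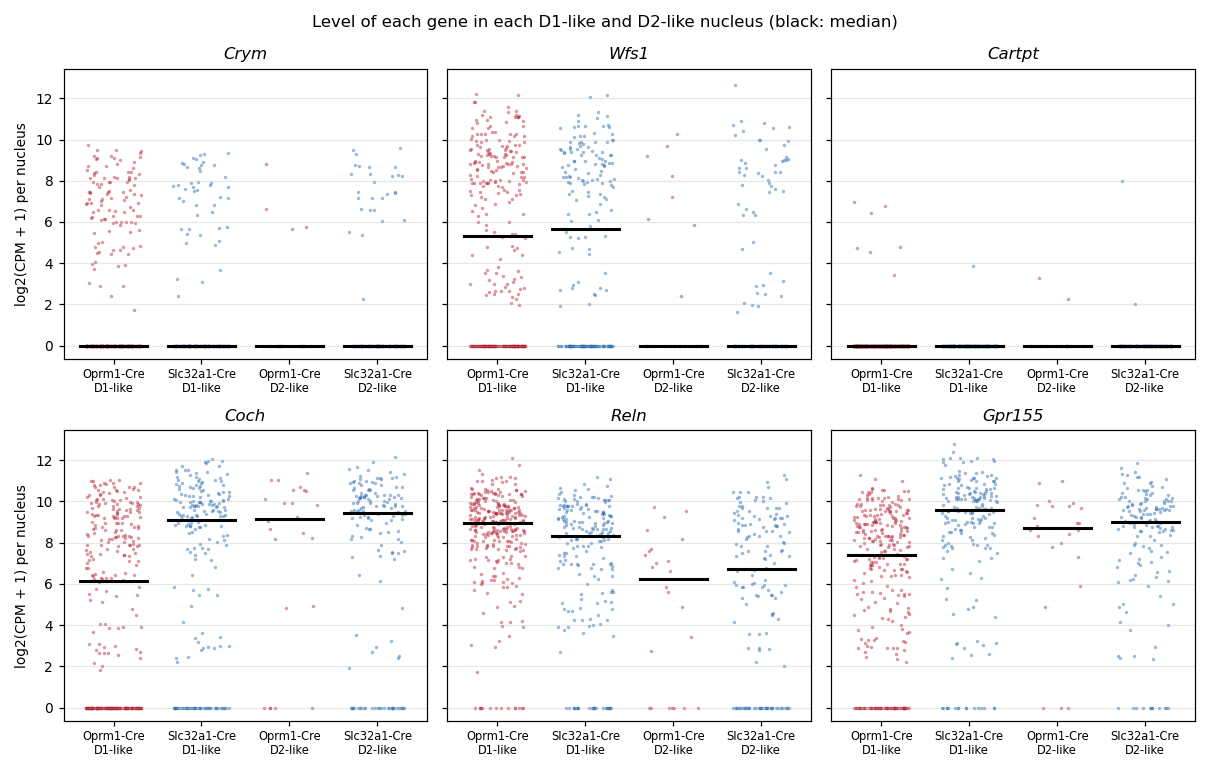
Level of each gene in each nucleus, as log2(CPM + 1) on the vertical axis, for D1-like and D2-like nuclei of the Oprm1-Cre (red) and Slc32a1-Cre (blue) plates. Points are nuclei, spread sideways for display, and black lines are medians. Coch and Gpr155 medians are lowest in Oprm1-Cre D1-like nuclei (69.9 and 168.6 CPM), and Crym medians are 0 in every group.

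Per kilobase of annotated exon, Wfs1 (116.5, 115.1 to 117.99) and Coch (113.97, 112.3 to 115.6) were level in Oprm1-Cre D1-like nuclei, since these intervals overlap, followed by Gpr155 at 53.2, Reln at 25.4, Crym at 22.2 and Cartpt at 1.20 CPM per kilobase. In Slc32a1-Cre D1-like nuclei the order was Coch (264.9), Gpr155 (159.2), Wfs1 (95.04), Reln (18.6) and Crym (17.5), of which the Reln (18.3 to 18.9) and Crym (16.7 to 18.2) intervals nearly meet. In D2-like nuclei Coch led in both plates (295.5 and 283.4), ahead of Gpr155 (101.4 and 103.8) and Wfs1 (42.7 and 56.3). Crym (8.86 and 15.03) and Reln (7.03 and 13.1) came after them. The length is that of exons, and the sources used here do not say whether reads in introns were counted.

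Between the plates, Oprm1-Cre D1-like nuclei had less of Coch and Gpr155 and similar or slightly higher levels of the other members. On the log2 ratio of Oprm1-Cre over Slc32a1-Cre, with 5 CPM added to both sums, Coch was at -1.20 and Gpr155 at -1.57, while Crym (0.32), Wfs1 (0.29) and Reln (0.45) lay within 0.5 of no difference. Of the 5 members at 5 CPM or more, 0 lay above 0.5 and 2 below -0.5. Among all 11006 genes at that level, 14.8% lay above 0.5 and 12.2% below -0.5. The D1-like nuclei of the plates also lay mostly in different clusters, with 35.9% of the Oprm1-Cre and 10.8% of the Slc32a1-Cre ones in cluster 2 (led by Pde1a and Col6a1) and 5.70% and 62.6% in cluster 0 (led by Clec12a and Trpc6). Wfs1 was among the leading genes of cluster 2, so the main comparison was by type. Xist was among the leading genes of cluster 0 and the Y-linked gene Ddx3y among those of cluster 3, and sex goes with plate here. Within clusters, whose making used 3 of the members, Wfs1, Coch and Gpr155, the plates lay within 0.5 of each other in Coch in 4 of 5 clusters. In cluster 0 it stood at 918 and 996 CPM (-0.12), over 17 Oprm1-Cre nuclei, in cluster 2 at 104.1 and 101.5 CPM (0.04), and in clusters 3 and 4 at -0.41 and -0.29, while cluster 5 kept a gap (285.2 and 591 CPM, -1.04). Gpr155 was level in cluster 2 (391.6 and 384.4 CPM, 0.03) and at -0.43 in cluster 3, but lower in Oprm1-Cre nuclei of cluster 0 (540 and 1379 CPM, -1.35), of cluster 4 (376.6 and 922 CPM, -1.28) and of cluster 5 (-0.93). Reln was at 0.33 to 0.81 over these 5 clusters, Crym at 0.03 to 2.24 and Wfs1 at -0.90 to 1.34.

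In D2-like nuclei it was Crym and Reln that were lower in the Oprm1-Cre plate, at -0.68 and -0.87, while Wfs1 (-0.39), Coch (0.06) and Gpr155 (-0.03) lay within 0.5. Among all genes, 23.5% lay above 0.5 and 29.2% below -0.5, and 2 of 5 members below -0.5 is read against that share and not as a result about the members. Without the D2-like nucleus with most reads of Crym in each plate, the ratio of Crym was -1.79. Only 24 nuclei stand behind each Oprm1-Cre D2-like sum.

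Between the neuron types, Crym, Wfs1 and Reln were higher in the D1-like than in the D2-like Oprm1-Cre nuclei, with log2 ratios of D1-like over D2-like of 1.19, 1.42 and 1.82, and Coch (-1.36) and Gpr155 (-0.92) were lower. The ratio of Crym was 2.40 without the nucleus with most reads in each group. Of all genes, 30.3% lay above 0.5 and 19.3% below -0.5 in this plate. In the Slc32a1-Cre plate, Wfs1 (0.74), Gpr155 (0.61) and Reln (0.50) were higher in D1-like nuclei, and Crym (0.20) and Coch (-0.10) lay within 0.5. There 14.9% of all genes lay above 0.5 and 10.4% below -0.5. Gpr155 thus lay past 0.5 on opposite sides in the plates, and Reln was at the limit, staying above it under 5 of 14 other ways of processing. The types also differed in the patch minus matrix score described below, more so in the Oprm1-Cre plate. Its medians in D1-like and D2-like nuclei were 0.346 and -3.62 there, and -3.49 and -4.38 in the Slc32a1-Cre plate. Type therefore goes with compartment score in the Oprm1-Cre plate, and the part of compartment in these ratios was not tested. Comparisons between plates and between types share their groups and are not independent of each other.

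**Figure D2:**
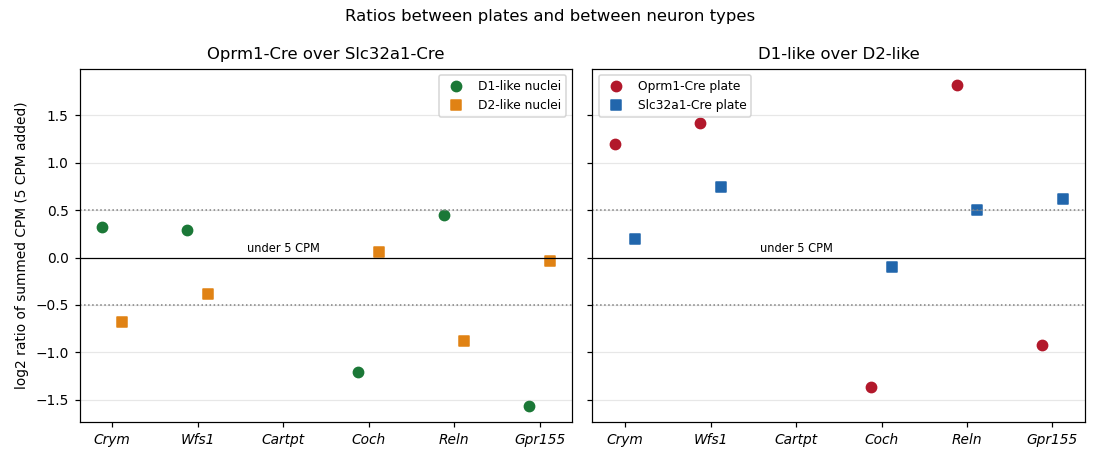
Log2 ratio of the summed CPM of each gene, with 5 CPM added, between the plates (left) and between the neuron types (right), with dotted lines at 0.5 and -0.5. Each point is 1 ratio of 2 sums with no replicate, and Cartpt is under 5 CPM. Gpr155 is at -0.92 in the Oprm1-Cre plate and 0.61 in the Slc32a1-Cre plate on the right.

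Across nuclei of one type in one plate, Crym and Wfs1 went together, Wfs1 went against Coch, and Crym went against Coch in D1-like nuclei. This was described by Pearson's r of log2(CPM + 1), where values within 0.2 of 0 are not called a relation, and all points of a group share a plate. Single pairs are not read from the 24 Oprm1-Cre D2-like nuclei, where 19.9% of all gene pairs lay above 0.2 and 15.7% below -0.2. Crym and Wfs1 had an r of 0.34 over the Oprm1-Cre and 0.27 over the Slc32a1-Cre part of the 493 D1-like nuclei. In Slc32a1-Cre D2-like nuclei it was 0.42. Among Oprm1-Cre D1-like nuclei with a Crym read, 77.98% (85 nuclei) had a Wfs1 read, against 52.9% of those without. In the Slc32a1-Cre plate it was 36 of 46 (78.3%) against 55.03%, and in its D2-like nuclei 20 of 28 (71.4%) against 28.3%. After thinning to 50000 reads these shares were 73.7% against 45.7%, 78.05% against 48.4% and 66.7% against 20.7%. Nuclei with a Crym read were somewhat deeper, with a median of 187748 against 164763 reads in Oprm1-Cre D1-like nuclei, and r was 0.33 there with reads and genes per nucleus removed.

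Coch had an r of -0.25 with Crym and -0.21 with Wfs1 in Oprm1-Cre D1-like nuclei, and -0.23 with both in Slc32a1-Cre D1-like nuclei. In Slc32a1-Cre D2-like nuclei it was -0.23 with Wfs1, and -0.18 with Crym, within the limit. A Coch read was found in 43.1% of the Oprm1-Cre D1-like nuclei with a Crym read and 71.96% of those without, and in 65.2% and 81.2% in the Slc32a1-Cre plate. Median Coch was 21.8 CPM in Oprm1-Cre D1-like nuclei with a Wfs1 read and 88.001 CPM in those without, and 298.8 and 946 CPM in Slc32a1-Cre D1-like nuclei. In Slc32a1-Cre D2-like nuclei it was 342.2 and 855 CPM. The shares with a Coch read differed less by Wfs1. They were 57.8% with a Wfs1 read and 67.3% without in Oprm1-Cre D1-like nuclei. In Slc32a1-Cre nuclei they were 76.3% and 79.2% of D1-like and 75.9% and 82.98% of D2-like nuclei.

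**Figure D3:**
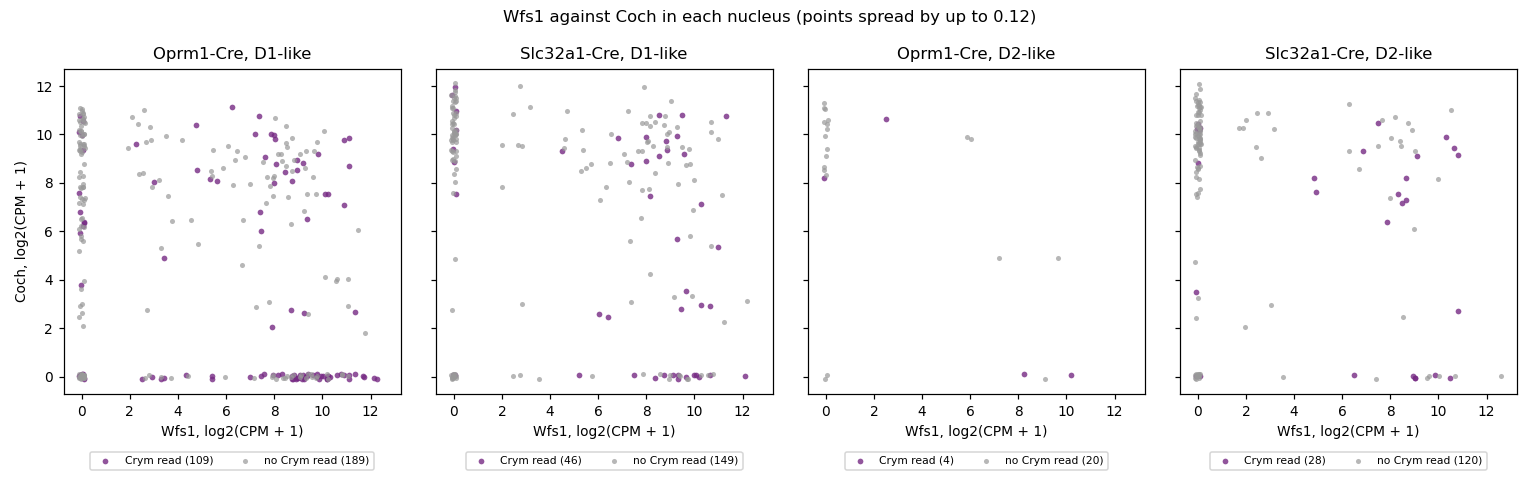
Wfs1 (horizontal) against Coch (vertical) in each nucleus, both as log2(CPM + 1), in 4 panels by plate and type. Nuclei with a Crym read are purple and the others grey, with their numbers under each panel. Many nuclei sit on an axis, with reads of 1 of the genes only, and most purple points of the first panel, 85 of them, lie off the vertical axis.

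Coch and Gpr155 went together in Slc32a1-Cre D1-like nuclei, with an r of 0.41. In Oprm1-Cre D1-like and in Slc32a1-Cre D2-like nuclei their r was under 0.2, at 0.17 in both. In Slc32a1-Cre D1-like nuclei, median Gpr155 was 997 CPM in nuclei with a Coch read and 375.04 CPM in those without. Crym and Gpr155 had an r of -0.22 there. Reln had an r with Coch of 0.036 and 0.17 in Oprm1-Cre and Slc32a1-Cre D1-like nuclei, and with Gpr155 of 0.025 and 0.059, all within the limit. Over the Slc32a1-Cre D1-like nuclei with a patch minus matrix score below 0, described below, r of Reln and Coch was 0.201. All r of Cartpt rest on 7 or fewer nuclei with a read in each group.

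Of the 15 pairs of members, 1 lay above 0.2 and 2 below -0.2 in Oprm1-Cre D1-like nuclei, where 0.294% of all gene pairs lay above 0.2 and 0.0289% below -0.2. In Slc32a1-Cre D1-like nuclei 2 lay above and 3 below, against 1.14% and 0.128% of all pairs, and in its D2-like nuclei 1 and 1, against 2.65% and 0.377%. Over the 24 Oprm1-Cre D2-like nuclei 3 lay above and 4 below, beside the shares of all pairs given above for that group. These shares cover genes with a read in at least 20% of the nuclei. Cartpt in every group, and Crym in D2-like nuclei (16.7% and 18.9%), fell short of that, so their pairs lie outside these shares.

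**Figure D4:**
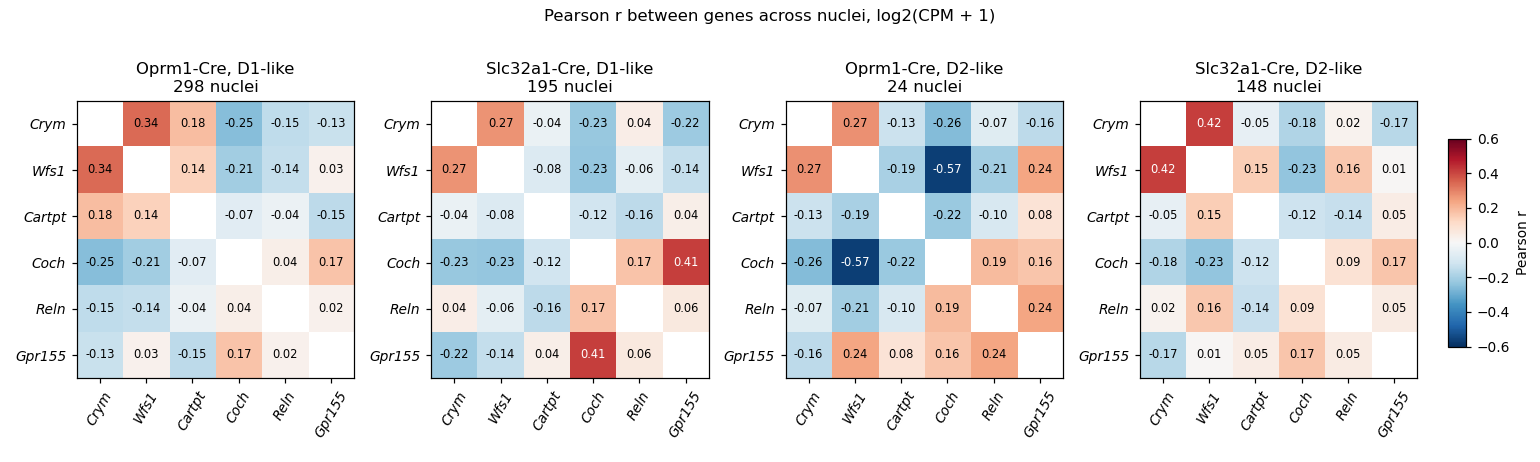
Pearson r of each pair of genes across nuclei, computed on log2(CPM + 1), with 1 panel for each plate and neuron type. Red is positive and blue negative. Outside the panel of 24 nuclei, from which no single pair is read, Crym with Wfs1 is red (0.27 to 0.42), Coch is blue with Wfs1, and the Reln row is pale.

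The patch and matrix are the chemical compartments of the striatum, and their markers differ between the plates. A score, the mean log2(CPM + 1) of 8 patch genes less the same mean for 8 genes of the matrix, stood at a median of 0.346 in Oprm1-Cre and -3.49 in Slc32a1-Cre D1-like nuclei. Gpr155 and Coch went down with this score in both, with an r of -0.21 and -0.25 in the Oprm1-Cre plate and -0.34 and -0.27 in the Slc32a1-Cre plate. Among the 7282 and 6949 genes set beside it, 0.192% lay above 0.2 and 0.687% below -0.2 in the Oprm1-Cre plate, and 0.173% and 3.71% in the Slc32a1-Cre plate. The r of Crym (-0.10 and 0.016), Wfs1 (-0.064 and 0.017) and Reln (0.077 and -0.083) with the score stayed within 0.2. In Slc32a1-Cre D2-like nuclei it was other members that went down with it, Wfs1 (-0.24), Reln (-0.21) and Crym (-0.21), while Gpr155 (-0.14) and Coch (-0.050) stayed within 0.2. There 0.35% of 6579 genes lay above 0.2 and 7.9% below -0.2.

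Compared on the same side of a score of 0, the gap between the plates in Gpr155 was large only in D1-like nuclei below 0. There it stood at 452 CPM (443 to 460.4) in the Oprm1-Cre nuclei (44.6% of the D1-like ones) and 1123 CPM (1112 to 1135) in the Slc32a1-Cre nuclei (91.8%), a log2 ratio of -1.30. At 0 or above, it stood at 281.1 CPM (275.2 to 287.05) in the Oprm1-Cre nuclei (55.4%) and 276.4 CPM (256.25 to 297.7) in 16 Slc32a1-Cre nuclei (0.02). Coch differed below 0, at 478 and 821 CPM (-0.78). At 0 or above it stood at 236.02 and 438 CPM (-0.88), but without the nucleus with most reads in each plate at 226.8 and 208.2 CPM (0.12), so that gap rests on 1 Slc32a1-Cre nucleus. Crym was higher in the Oprm1-Cre plate below 0, at 99.4 and 61.04 CPM (0.66). At 0 or above Crym stood at 56.6 and 35.3 CPM (0.61), with reads in 2 Slc32a1-Cre nuclei, and at 51.6 and 16.6 CPM (1.39) without the nucleus with most reads in each plate. Even below 0 the median score was -1.58 in the Oprm1-Cre plate and -3.73 in the Slc32a1-Cre plate, so these sides do not match the nuclei fully, and the part of compartment in the gap was not tested.

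The r of members was also taken on either side of the score. In Oprm1-Cre D1-like nuclei, r of Wfs1 and Coch was -0.41 over the nuclei below 0 and -0.055 over those at 0 or above, and r of Crym and Wfs1 was 0.48 and 0.199. Crym and Coch had -0.32 and -0.24. In the Slc32a1-Cre plate the nuclei below 0 gave -0.21 for Wfs1 and Coch and 0.26 for Crym and Wfs1, and 16 nuclei were too few for the other side. Whether these r differ between the sides was not tested.

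**Figure D5:**
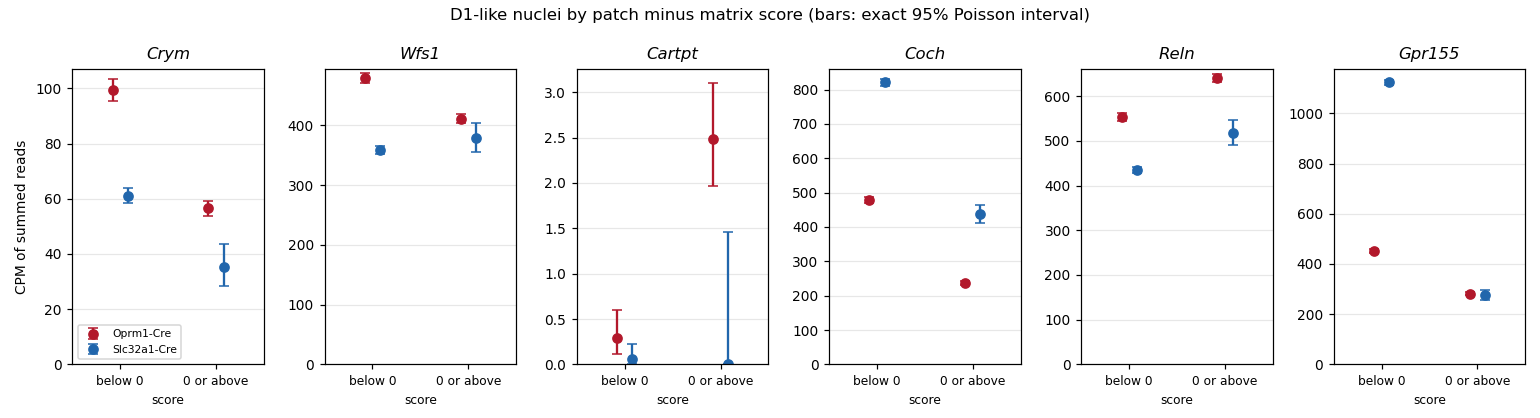
CPM of the summed reads of each gene over Oprm1-Cre (red) and Slc32a1-Cre (blue) D1-like nuclei, by whether the patch minus matrix score was below 0 or not. Bars are exact 95% Poisson intervals of the counts, and vertical axes start at 0 with their own scale. The Gpr155 points of the plates are far apart below 0 (452 and 1123 CPM) and meet at 0 or above (281.1 and 276.4 CPM).

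Among 6640 genes with a read in at least 20% of the D1-like nuclei of both plates, the genes most like each member were ranked by the mean of the r in the D1-like nuclei of the plates. For Crym these were Col6a1, a collagen gene (0.31), Wfs1 (0.30) and Ly6h (0.29), and least like it were the nuclear RNA Malat1 (-0.32), the calcium pump gene Atp2b1 (-0.26) and the cannabinoid receptor gene Cnr1 (-0.26). For Wfs1 they were Col6a1 (0.45), Ly6h (0.38) and Cpne6 (0.36), and at the other end Cnr1 (-0.41), Malat1 (-0.39) and the phosphodiesterase gene Pde10a (-0.35). Coch showed nearly the mirror image, with Pcp4 (0.40), Cnr1 (0.35) and the sodium channel subunit gene Scn4b (0.33) on top and Col6a1 (-0.39), Pdyn (-0.35) and Ly6h (-0.26) at the bottom. Over the Slc32a1-Cre D2-like nuclei, which the ranking did not use, Cnr1 had an r of -0.41 with Crym, -0.46 with Wfs1 and 0.44 with Coch. Coch had 0.41 with Scn4b and 0.33 with Pcp4 there, but stayed within 0.2 with the genes of its other end, Ly6h (-0.16), Col6a1 (-0.12) and Pdyn (-0.069). Malat1 had -0.24 and -0.48 with Crym and Wfs1 there, and was at 72575 and 50898 CPM in the D1-like nuclei of the plates.

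For Gpr155 the most like gene of all was Coch (0.29), followed by Lrpap1 (0.25) and Smpd3 (0.22). The least like were Col6a1 (-0.23), Pdyn (-0.21) and Tenm2 (-0.18). These means hide unlike plates. In Oprm1-Cre D1-like nuclei the r of these genes, in this order, were 0.17, 0.19, 0.054, -0.17, -0.076 and -0.24. In Slc32a1-Cre D1-like nuclei they were 0.41, 0.31, 0.39, -0.28, -0.35 and -0.12. In Slc32a1-Cre D2-like nuclei Col6a1 (-0.23) stayed past 0.2 with Gpr155, while Coch (0.17), Lrpap1 (-0.096), Smpd3 (-0.037), Pdyn (0.066) and Tenm2 (0.058) did not. No gene came far with Reln, where Rock2 (0.21), Serpine2 (0.21) and Tnks2 (0.19) led and Fhl1 (-0.16), Mrpl32 (-0.15) and Mmab (-0.15) closed the list, all of them within 0.2 in Slc32a1-Cre D2-like nuclei. Wfs1 was the second of the genes most like Crym, and Coch was the fourth from the bottom. The genes named for Cartpt (Mri1, Zfp941 and Cc2d1b, against Grm5, Fnbp1l and Scn8a) rest on 7 nuclei with a read in one plate and 1 in the other.

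Of 7 other genes of the medial or ventral striatum, Synpr went with Wfs1 in the D1-like nuclei of both plates. Dlk1 went with Wfs1 in Oprm1-Cre D1-like nuclei. Synpr, a synaptic vesicle protein gene, had an r of 0.40 and 0.32 with Wfs1 in Oprm1-Cre and Slc32a1-Cre D1-like nuclei, and Dlk1 0.41 and 0.21. With Crym, Synpr had 0.24 and 0.23 and Dlk1 0.39 and 0.17. Dlk1 had reads in 33 Oprm1-Cre and 6 Slc32a1-Cre D1-like nuclei, so its r in the second plate rests on 6 nuclei. In Slc32a1-Cre D2-like nuclei Synpr stayed within 0.2 with Wfs1 (0.11) and Crym (0.095). The r of Lypd1, Trhr, Peg10, Nts and Zic1 with Wfs1 and with Crym stayed within 0.2 in the D1-like nuclei of both plates, as for Lypd1 with Wfs1 (-0.17 and 0.0041). Trhr, Peg10, Nts and Zic1 had reads in 15, 19, 5 and 2 Oprm1-Cre D1-like nuclei. In Slc32a1-Cre D1-like nuclei it was 3, 9, 2 and 2, so their r say little about a relation. The Trhr ratio between the plates given next rests on the same few nuclei. Between the plates, 3 of 5 measured genes of this list were above 0.5 in D1-like nuclei, namely Dlk1 (27.6 and 3.87 CPM, 1.88), Trhr (21.2 and 2.51 CPM, 1.80) and Lypd1 (43.6 and 11.9 CPM, 1.52), and Synpr was below -0.5 (664 and 1374 CPM, -1.04), beside 14.8% of all genes above and 12.2% below, and with a list median of 1.52 against -0.003 over all genes. In D2-like nuclei 2 of 4 were above, Trhr (3.01) and Nts (1.08), at 40.5 and 0.642 CPM of Trhr and 12.8 and 3.45 CPM of Nts, beside 23.5% of all genes above. The nucleus of well B6 held 79.04% of the Trhr reads of the Oprm1-Cre plate there, and without the nucleus with most reads in each plate Trhr stood at 8.73 and 0 CPM (1.46) and Nts at 6.02 and 2.17 CPM (0.62). Between the types in the Oprm1-Cre plate, Dlk1 (27.6 CPM in D1-like nuclei and 0 reads in D2-like ones) and Lypd1 (1.82) were above and Synpr (-0.92), Trhr (-0.79) and Nts (-0.83) below. The ratio of Trhr was 0.62 without the nucleus with most reads in each type. In the Slc32a1-Cre plate 0 of 2 measured genes were past the limit. Cnr1, taken as another dorsolateral gene, was nearly level in D1-like nuclei, with 1894 and 2047 CPM (-0.11), and higher among Oprm1-Cre D2-like nuclei, with 3033 and 1757 CPM (0.79). It had an r with Coch of 0.34 and 0.36 in the D1-like nuclei of the plates.

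Genes known to act with the members were mostly within 0.5 between the plates in D1-like nuclei. Of 8 genes of reelin signalling, 3 lay above 0.5, the receptor gene Lrp8 (38.5 and 17.1 CPM, 0.97), the adaptor gene Crkl (0.60) and the exchange factor gene Rapgef1 (0.59), and 0 below, with a median of 0.06 and beside 14.8% of all genes above 0.5. Of 5 measured genes of thyroid hormone handling and 5 of peptide processing, 0 lay past the limit in either direction. Of 6 measured genes of the endoplasmic reticulum stress response, the chaperone gene Hspa5 lay below -0.5 (399 and 804 CPM, -1.002). In D2-like nuclei 4 of these 6 lay below -0.5, Hspa5 (-1.26), Eif2ak3 (-1.13), Xbp1 (-1.11) and Atf6 (-0.60), beside the 29.2% of all genes. Lrp8 (2.05), Dab1 (1.05), Vldlr (0.70) and Pafah1b1 (0.60) lay above 0.5 and Rapgef1 (-0.999) below. Thra (0.59), Thrb (-0.72), Pam (0.51), Pcsk2 (-0.72) and Pcsk1 (-0.59) were the other genes of these lists past the limit. These D2-like ratios rest on few nuclei, as without the nucleus with most reads in each plate Vldlr (0.40), Dab1 (0.46), Pafah1b1 (0.29), Thra (0.40) and Pam (0.39) lay within 0.5 and Lrp8 was at 0.76, Pcsk1 at -1.42 and Eif2ak3 at -1.77.

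Between the types, Vldlr (0.73), Lrp8 (0.59) and Crk (0.53) were above 0.5 and Rapgef1 (-0.79) below in the Slc32a1-Cre plate. In the Oprm1-Cre plate Rapgef1 (0.80), Thrb (0.55), Pcsk1 (0.65), Eif2ak3 (1.38) and Xbp1 (0.84) were above and Dab1 (-0.78) and Pafah1b1 (-0.61) below, and without the nucleus with most reads in each type Dab1 (-0.18) and Pafah1b1 (-0.23) lay within 0.5, with Pcsk1 at 1.79 and Eif2ak3 at 2.15. Of the patch list, 6 of 7 measured genes lay above 0.5 between the plates in D1-like nuclei, led by Oprm1 (2.50), Sema5b (2.33) and Nr4a1 (2.15). Of the matrix list, 6 of 8 genes lay below -0.5, led by Id4 (-2.59), Sv2b (-1.37) and Epha4 (-1.31). Over all genes 14.8% lay above 0.5 and 12.2% below -0.5. These lists were chosen with earlier results of these data known, so the counts are no check of the compartments. Among lists of several genes, the median r with a member was farthest from 0 for patch genes with Coch (-0.15, 2 genes searched) and for the medial or ventral genes with Wfs1 (0.14, 2 genes searched). Each is the midpoint of 2 unlike genes and does not describe its list. With Coch, Pdyn had -0.31 and -0.40 in Oprm1-Cre and Slc32a1-Cre D1-like nuclei, and the other patch gene 0.056 in both. With Wfs1, Synpr had 0.40 and 0.32, and Lypd1 -0.17 and 0.0041. For the lists of reelin signalling, thyroid hormone handling, peptide processing and endoplasmic reticulum stress it stayed between -0.013 and 0.074 for every member.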

How the data were processed

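Nuclei were sequenced 1 to a well from 2 genotypes, in 768 wells. The authors deposited read counts per gene and well, with no molecular identifiers. Per the submitters' processing notes, mm10, SAMtools and Seurat were used, and for the aligner, counter, annotation and strand setting the sources used here give nothing. The plate number in the Slc32a1-Cre labels is that of the other genotype's table, so genotype was taken from the labels of each well. Columns of no sample numbered 0.

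Wells with under 1000 genes or 20000 reads on genes were left out, and 92 spike-ins and 1 reporter entry were kept out of library sizes, which left 736 nuclei. Types came from 7 D1, 7 D2 and 10 SPN markers, by a D1 minus D2 difference of 2 and an SPN minimum of 3 on the log2 scale, and from clusters (2000 variable genes, 30 components, 15 neighbours, resolution 1), with 4 nuclei set aside. No doublet caller was run, and an alternative left out 29 possible doublets. Reads were summed by plate and type and given as CPM, and log2 ratios had 5 CPM added and needed 5 CPM in 1 group. Correlations used log2(CPM + 1) in single nuclei. Each plate is 1 sample, so no test was run, and Poisson and Clopper-Pearson intervals (95%) cover counting error only. The scripts' ratios, intervals and correlations were tested on simulated data. Other genes were named by 1 rule, the 3 most and 3 least like each member by mean r in D1-like nuclei, plus the genes past 0.5 or -0.5 in the lists (medial or ventral, dorsolateral, reelin signalling, thyroid hormone handling, peptide processing, endoplasmic reticulum stress, patch, matrix). A gene of these lists is not reported here. The members and lists were chosen with earlier results of these data known. Alternatives covered scaling, pseudocount, filters, depth, type limits, doublets, rank correlation and thinning. Tables were handled with pandas 2.3.3 and numpy 2.4.6 in Python 3.11.15, and numpy also gave the components. Intervals came from scipy 1.17.1, neighbours from scikit-learn 1.9.0, clusters from leidenalg 0.10.2 with igraph 0.11.9, and plots from matplotlib 3.10.9.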

Additional observations from a re-analysis of the deposited data

Results flagged for a closer look

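Gpr155 lay on opposite sides of no difference in the plates when D1-like nuclei were set against D2-like nuclei, with log2 ratios of -0.92 in the Oprm1-Cre plate and 0.61 in the Slc32a1-Cre plate. With 1 plate per genotype the difference between these ratios was not tested. The types differed more in patch minus matrix score in the Oprm1-Cre plate, and the part of compartment was not tested. In the wells left out for low depth, the Oprm1-Cre plate held 6 reads of Wfs1, spread over 5 of 29 wells, and the 3 such wells of the Slc32a1-Cre plate held 0.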

How the results depend on the processing

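Of the 12 log2 ratios of members past 0.5 or -0.5, the ratio of Reln between D1-like and D2-like nuclei of the Slc32a1-Cre plate did not stay past the limit throughout (0.39 to 0.53), and the other 11 did under every alternative run. Median-of-ratios scaling moved the median of all genes by -0.10 between the types in the Oprm1-Cre plate. The number of pairs past 0.2 in Oprm1-Cre D1-like nuclei, 3 with Pearson's r, was 5 with Spearman's rho (3 above, 2 below). It was also 5 over the 44.6% of these nuclei with a score below 0 (2 above, 3 below), an alternative chosen after seeing the data. The r of Cartpt and Coch over 24 Oprm1-Cre D2-like nuclei was -0.22, and 0.16 after thinning to 50000 reads, and the cause was not tested. No paired analysis was possible because the replicate numbers only name wells and no test was run. Cartpt had reads in 16 nuclei in all, so no fold is given for it. Without the nucleus with most reads in each group, an alternative chosen after seeing the data, the ratio of Trhr between the types in the Oprm1-Cre plate was 0.62 (-0.79 with it) and that of Coch between the plates at a score of 0 or above was 0.12 (-0.88 with it).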

Other observations

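The nuclei whose SPN type stayed undecided, 16 in the plate of Oprm1-Cre mice and 18 in that of Slc32a1-Cre mice, had Wfs1 at 733 and 655 CPM, Coch at 528 and 373.4 CPM and Gpr155 at 161.1 and 466 CPM. Reln stood at 196.1 and 218.5 CPM, Crym at 59.96 and 81.7 CPM and Cartpt at 4.38 and 5.13 CPM. In each plate 2 of these nuclei held 50% of the Wfs1 reads.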
